A study of Homo sapiens with 20 samples.

Results

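The 4 mature microRNAs (miRNAs) described here are the 2 arms of the miR-140 hairpin and the 2 arms of the miR-335 hairpin, named miR-140-5p, miR-140-3p, miR-335-5p and miR-335-3p. They are 4 of the 2588 mature miRNAs counted in the series, and were chosen by name. The names were put together with results of these libraries already known, so measured values bore on the choice, but which values, contrast or threshold were used is not stated. The p-values below therefore describe these libraries and are no independent support for any pattern.

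Small RNA was sequenced in 20 libraries of 2 human cell lines, in 8 groups. HCT116 comes from a colon cancer, and HEK293E descends from embryonic kidney cells. Knockout cells of both lines, which lack the nuclease DROSHA, were rescued with full-length DROSHA (3 HCT116 and 3 HEK293E libraries) or with DROSHA-p140, a shorter form of the protein (3 and 3). HCT116 knockout cells with GFP and untreated wild-type HCT116 cells gave 1 library each. Wild-type HCT116 cells kept for 72 hr in 9.1% or 0.1% fetal bovine serum (FBS) gave 3 libraries each. The sources used here do not give whether each knockout is 1 clone or how the rescue proteins were expressed. Separate cultures are not stated for the replicates either, so a p-value covers only the spread of these samples, and part of it may be technical.

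DROSHA, with its partner DGCR8, cuts the hairpin of a miRNA out of the primary transcript in the nucleus, and DICER then removes the loop. This leaves a duplex of a 5p and a 3p arm, of which 1 is usually kept by an Argonaute protein and the other degraded. A miRNA in an intron is made from the transcript of its host gene. WWP2, the host of miR-140, encodes a ubiquitin ligase, and miR-140 is best known from cartilage. MEST, the host of miR-335, is an imprinted gene expressed from the paternal copy, and miR-335 has been studied in mesenchymal cells and in tumour spread.

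The mature sequences are shown because the arms of each hairpin are compared throughout. Each is printed 5′ to 3′ from RefSeq (GRCh38.p14), with the seed, bases 2 to 8, in capitals. All 4 members matched an entry.
miR-140-5p: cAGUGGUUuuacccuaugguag
miR-140-3p: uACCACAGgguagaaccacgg
miR-335-5p: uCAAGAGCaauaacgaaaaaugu
miR-335-3p: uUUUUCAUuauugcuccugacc

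The 4 seeds differ, and none of the 2281 miRNAs of the files with a RefSeq sequence shares any of them. The first base is c in miR-140-5p and u in the other arms. The miR-140 arms hold 45.5% (5p) and 57.1% (3p) G and C, against 30.4% and 36.4% in the miR-335 arms. The hairpins follow, with the arms in capitals.
mir-140 hairpin: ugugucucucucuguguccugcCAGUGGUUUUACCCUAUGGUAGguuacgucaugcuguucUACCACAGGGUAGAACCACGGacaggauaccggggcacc
mir-335 hairpin: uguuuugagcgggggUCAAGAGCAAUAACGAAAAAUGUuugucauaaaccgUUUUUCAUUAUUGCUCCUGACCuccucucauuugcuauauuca

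Folded with RNAfold, the 100-base mir-140 hairpin had a predicted energy of -54.4 kcal/mol, with 19 base pairs between its arms and 17 bases between them. The 94-base mir-335 hairpin had -40.2 kcal/mol, 18 pairs between its arms and 13 bases between them. The mir-140 hairpin spans chr16:69933081-69933180 on the plus strand of GRCh38. Its 5p arm lies at chr16:69933103-69933124 and its 3p arm at chr16:69933142-69933162. Both are in intron 16 of the 24-exon WWP2 transcript ENST00000359154.6, with the 5p arm 1212 bases past the upstream exon of this 2079-base intron. Of the annotated WWP2 transcripts (GENCODE 29), 7 have the arms in an intron, 0 in an exon, and 13 do not reach them. The mir-335 hairpin spans chr7:130496111-130496204, also on the plus strand. Its 5p arm lies at chr7:130496126-130496148 and its 3p arm at chr7:130496162-130496183, both in intron 2 of the 12-exon MEST transcript ENST00000223215.9. The 5p arm stands 603 bases past the upstream exon of this 1633-base intron. For 13 MEST transcripts the arms are intronic, for 0 exonic, and 4 transcripts do not reach them. Each member has a single hairpin in the files, so no reads are shared between copies.

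Depth differed widely between groups. Libraries held 38288 reads in knockout cells with GFP, 764014 to 873717 in HCT116 with full-length DROSHA, 305603 to 327011 with p140, 224262 to 335803 and 135085 to 246008 in the matching HEK293E groups, 856658 in untreated wild type and 1745625 to 2822317 in the serum experiment. The 22 miRNAs of a list made without DROSHA (miR-320a, miR-484 and mirtrons such as miR-877) took 0.821% to 1.35% of reads in the serum experiment and 1.27% in untreated wild type. They took 2.74% to 4.98% in HCT116 with full-length DROSHA, 7.05% to 21.0% with p140, 10.6% to 20.0% in HEK293E and 69.7% with GFP, and a higher share leaves fewer reads for the members. The summed level of 5 epithelial markers of the miR-200 family was 40046 to 52348 CPM (reads scaled to a common library total) in wild-type HCT116, 4936 with GFP, and only 186 to 355 in rescued HCT116, close to the 146 to 271 of HEK293E. Rescued HCT116 cells thus lacked the epithelial miRNA level of the wild-type line. Replicate 3 stood apart from replicates 1 and 2 in both HCT116 rescue groups and both serum groups: the chi-square per degree of freedom was 36.4 to 88.9 for pairs with replicate 3 and 3.57 to 8.29 for replicates 1 and 2. In such bulk samples, fewer cells holding a miRNA and less of it per cell cannot be told apart.

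Levels over the 8 groups are given first as CPM of the library total. The arms of miR-140 were found in every library, and its 3p arm was the more abundant in all 20. miR-140-5p had its highest mean in HEK293E with full-length DROSHA, 416 ± 49.1 CPM (SD, n = 3), from libraries at 455, 361 and 432. HEK293E with p140 followed at 356 ± 92.8, then HCT116 with full-length DROSHA at 312 ± 77.8, wild type in 0.1% FBS at 284 ± 30.4, HCT116 with p140 at 270 ± 97.4 and wild type in 9.1% FBS at 251 ± 61.4 (n = 3 each). Every neighbouring pair in this order overlapped. The untreated wild-type library stood at 120 CPM (103 reads, exact binomial interval 98.1 to 146) and the GFP library at 52.2 CPM (2 reads, 6.33 to 189). Only these lay below every library of the groups above them.

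For miR-140-3p the order was clearer. HEK293E with full-length DROSHA had 1131 ± 76.9 CPM (1217, 1069 and 1108), HEK293E with p140 979 ± 198 (1147, 762 and 1028) and HCT116 with full-length DROSHA 972 ± 42.1 (963, 1018 and 935), and these neighbours overlapped. HCT116 with p140 came next with 713 ± 90.3 (651, 671 and 816). The serum groups were lower still and overlapped, at 520 ± 40.2 in 0.1% FBS (497, 498 and 567) and 516 ± 86.0 in 9.1% FBS (467, 464 and 615). Untreated wild type held 379 CPM (325 reads, interval 339 to 423), and the GFP library 104 (4 reads, 28.5 to 267).

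The miR-335 arms ran in another order, with wild type in 9.1% FBS at the top and HEK293E at the bottom of the replicated groups. miR-335-5p had 504 ± 40.4 CPM in 9.1% FBS (506, 542 and 462), 367 in untreated wild type (314 reads, interval 327 to 409) and 262 ± 19.4 in 0.1% FBS (243, 282 and 263). These 3 did not overlap. HCT116 with p140 (202 ± 59.7, libraries 205, 141 and 260) and with full-length DROSHA (193 ± 48.1, libraries 150, 183 and 245) overlapped each other. HEK293E libraries held 1 to 7 reads, or 20.0 ± 3.27 CPM with p140 (22.2, 21.6 and 16.3) and 12.8 ± 8.29 with full-length DROSHA (13.4, 4.29 and 20.8). No miR-335-5p read was found with GFP, which at that depth allows up to 78.4 CPM (3 counts). This last library therefore cannot be ordered against HEK293E.

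miR-335-3p stood at 537 ± 16.3 CPM in 9.1% FBS (533, 555 and 523), above every other library. Untreated wild type had 186 CPM (159 reads, interval 158 to 217), HCT116 with p140 168 ± 65.5 (117, 144 and 242), HCT116 with full-length DROSHA 161 ± 104 (106, 96.1 and 280) and wild type in 0.1% FBS 145 ± 17.5 (132, 138 and 165), and these overlapped. In full-length rescue, replicate 3 held more than either other library by over 2-fold. The GFP library held 1 read (26.1 CPM, interval 0.661 to 146). HEK293E held 1, 4 and 2 reads with full-length DROSHA (4.46, 17.2 and 5.96 CPM) and 0, 0 and 2 reads with p140 (floors of 22.2 and 16.2 CPM for the libraries at 0, and 8.13 CPM). Intervals and floors cover counting error only.

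**Figure D1:**
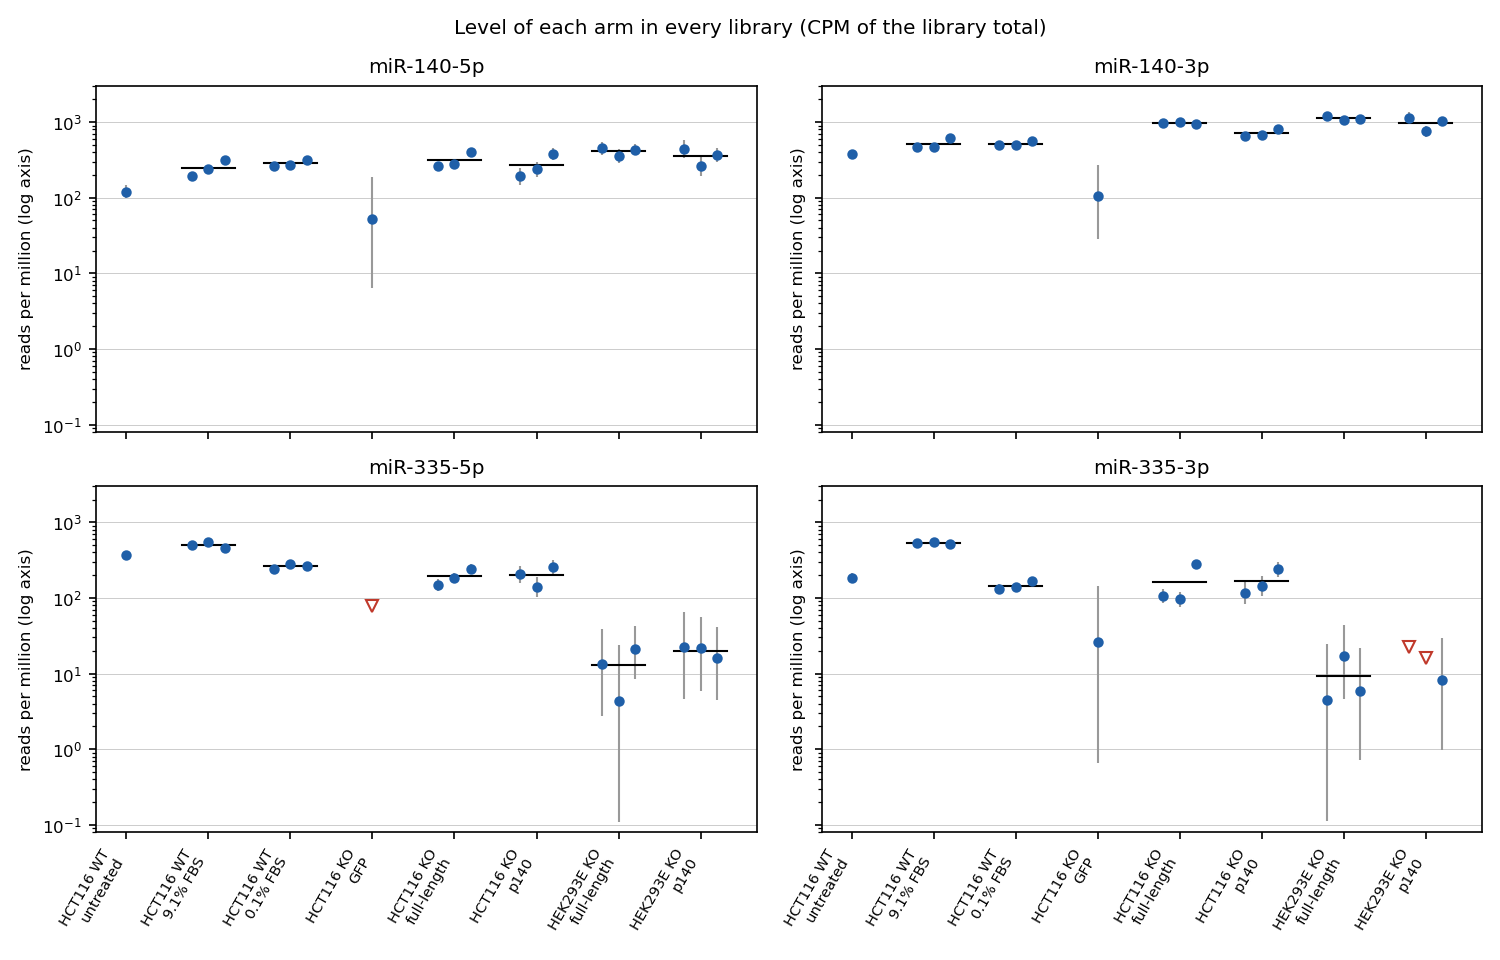
Level of each arm in every library, in CPM of the library total on a log axis. Points are libraries with exact 95% binomial intervals, and black lines are means of 3 libraries (none drawn where a library is at 0). Open triangles mark the 3-count floor of libraries with 0 reads. The miR-335 arms of HEK293E lie below all HCT116 libraries except the one with GFP.

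The 3p arm outnumbered the 5p arm of miR-140 in every group, while the arms of miR-335 were nearer to balance and differed between groups. A ratio of reads is not a ratio of molecules, since ligation can favour some ends. For miR-140 the 3p:5p ratio was 3.71, 3.69 and 2.33 in HCT116 with full-length DROSHA, and 3.39, 2.81 and 2.15 with p140. In both groups replicate 3 was the lowest. HEK293E gave 2.68, 2.96 and 2.57 with full-length DROSHA and 2.58, 2.94 and 2.81 with p140, inside the range of rescued HCT116. Wild-type HCT116 gave 2.40, 1.92 and 1.94 in 9.1% FBS and 1.92, 1.81 and 1.78 in 0.1% FBS. Untreated wild type, at 3.16 (75.9% 3p of 428 reads, exact binomial interval 71.6% to 79.9%), lay above all 6 libraries of the serum experiment. The GFP library held 6 reads of both arms.

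For miR-335 the ratio was 1.05, 1.02 and 1.13 in 9.1% FBS and 0.545, 0.490 and 0.629 in 0.1% FBS, so the arms were about equal in the first and the 5p arm led in the second. Untreated wild type, at 0.506 (33.6% 3p of 473 reads, interval 29.4% to 38.1%), fell within the range of the 0.1% group. HCT116 rescue libraries covered both: 0.706, 0.525 and 1.14 with full-length DROSHA, and 0.571, 1.02 and 0.929 with p140. HEK293E libraries held 3 to 9 reads of both arms, too few for a ratio, with 38.9% 3p of the pooled reads with full-length DROSHA (interval 17.3% to 64.3%) and 15.4% with p140 (1.92% to 45.4%).

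**Figure D2:**
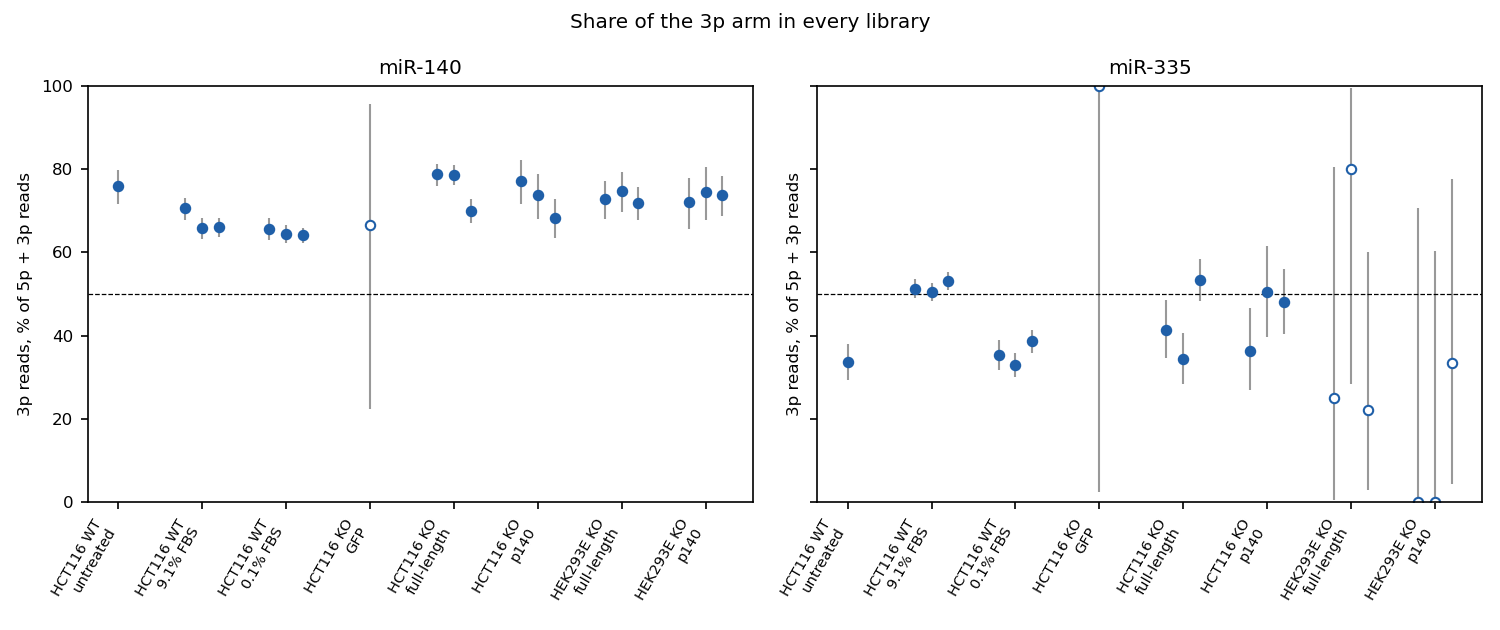
Share of 3p reads among the reads of both arms, in percent, in every library. Bars are exact 95% binomial intervals, open points have fewer than 10 reads, and the dashed line marks equal arms. miR-140 stays above the line in every library, and miR-335 falls from 50.6% to 53.1% in 9.1% FBS to 32.9% to 38.6% in 0.1% FBS.

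The comparison of p140 with full-length DROSHA asks which miRNAs each form supplies in knockout cells. In HCT116, miR-140-3p was lower with p140, and no difference passed the test for miR-140-5p or the miR-335 arms. With TMM scaling, which sets libraries to a common level of most miRNAs, miR-140-3p stood at 965, 1047 and 1003 CPM with full-length DROSHA and at 657, 685 and 736 with p140. The groups did not overlap, and the log2 fold change was -0.54 ± 0.15 (SE), with an adjusted p of 0.0158 in edgeR's quasi-likelihood test. Of all 446 miRNAs tested 59.6% passed this threshold, 31.2% as lower, and 64.8% had groups without overlap. The share called was thus high for any miRNA in this comparison, although only 74 and 78 miRNAs were called without replicate 1 or 2, against 266 with all. miR-140-5p changed by -0.32 ± 0.30 (adjusted p = 0.380), miR-335-5p by -0.04 ± 0.29 (0.921) and miR-335-3p by -0.06 ± 0.48 (0.922), all in edgeR. The miR-140-3p call was lost on library totals (-0.44, adjusted p = 0.0634 in edgeR), and with similar folds (-0.54, -0.51 and -0.50) without full-length replicate 2, p140 replicate 1 or p140 replicate 2 (0.0645, 0.0702 and 0.0727). Without replicate 1 or 2 in both groups the fold was -0.50 and -0.49 (edgeR adjusted p = 0.16 and 0.191). The call of miR-140-3p held in 7 of 8 other settings, including a block on replicate number (-0.54, adjusted p = 0.00174 in edgeR). It held in 4 of 9 fits with libraries left out. Without p140 replicate 3, the p140 library with the lowest share of the DROSHA-independent list, miR-140-5p was called at -0.67 (adjusted p = 0.0448 in edgeR).

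Other miRNAs give the frame for these values. A list of 40 conserved intronic miRNAs, 1 guide arm each and without the members, had 22 of 37 tested members lower with p140 and 2 higher, with a median log2 fold change of -0.79, against -0.11 over all miRNAs tested. Its 3 most abundant members, miR-103a-3p (0.04), miR-93-5p (0.32) and miR-26a-5p (0.27), did not pass. All 14 tested miRNAs of the DROSHA-independent list were higher, with a median of 1.87, led by miR-320a at 1.90 ± 0.46. A list of 3 neural markers, all detected in both groups, had sums of 2060 to 2327 CPM in full-length rescue against 438 to 743 in p140 rescue, and its part in the result was not tested. Scaled to the DROSHA-independent list, which takes its summed reads as constant, the median of all miRNAs moved by -1.52. All 170 calls were then lower (against 52.3% of calls with TMM), and miR-140-3p fell by 2.06 (adjusted p = 0.0489 in edgeR). The other 3 had -1.79, -1.57 and -1.62 and did not pass.

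In HEK293E neither arm of miR-140 passed the test. miR-140-5p stood at 463, 344 and 421 TMM-scaled CPM with full-length DROSHA and 457, 279 and 371 with p140, which is -0.16 ± 0.24 in log2 (adjusted p = 0.672 in edgeR). miR-140-3p stood at 1238, 1019 and 1079 against 1180, 819 and 1042, a change of -0.14 ± 0.20 (0.652). The groups overlapped for both arms, although each arm was lower with p140 in all 3 pairs of same-numbered libraries, and 0 of the 2 members tested passed (unadjusted p = 0.527 and 0.504), against 26.4% of all 416 miRNAs (110 miRNAs, 47 without replicate 3). The miR-335 arms did not pass the filter on low counts. Of the conserved intronic list 12 of 38 were lower and 0 higher (median -0.22, all miRNAs -0.04). Its most abundant member, miR-218-5p, fell by 0.79 ± 0.12. The 7 blood markers, with miR-223-3p at 0 in both groups, had sums of 459 to 953 CPM in full-length rescue against 111 to 281 in p140 rescue, and the neural markers 3472 to 4281 against 1750 to 2813. Their part in the result was not tested. Scaled to the DROSHA-independent list, the median of all miRNAs moved by -0.70, the share of calls that were lower went from 80% to 98.1%, and both arms were called, at -0.85 (adjusted p = 0.0246 in edgeR) and -0.83 (0.0198).

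The difference between the lines in the p140 effect was tested itself. It was 0.09 ± 0.38 for miR-140-5p and 0.35 ± 0.26 for miR-140-3p (HEK293E minus HCT116, log2). Neither arm passed (edgeR adjusted p = 0.970 and 0.504, unadjusted p = 0.815 and 0.198), against 3.30% of the 515 miRNAs tested (17 miRNAs). For the miR-335 arms, which entered this fit only through their HCT116 reads and had 2 to 11 reads over each HEK293E group, the standard errors were 0.65 (5p) and 1.29 (3p), so a difference was not detectable at this depth. Blocking on replicate number raised the calls to 102 miRNAs, with no member among them, and leaving out single libraries gave 5 (without HEK293E p140 replicate 2) to 85 (without HCT116 p140 replicate 3). The share of calls that were lower was 35.3%, 45.5% with RLE factors and 50% on library totals, and none was called on the list scale.

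Nor did a change in arm ratio pass. In HCT116 the log2 3p:5p ratio of miR-140 changed by -0.22 ± 0.31 with p140 and that of miR-335 by 0.12 ± 0.42 (limma, adjusted p = 0.987 for both). Of 160 hairpins tested 0 were called, with 6 at an unadjusted p under 0.05 and 0 by edgeR's diffSpliceDGE. In HEK293E the miR-140 ratio changed by 0.02 ± 0.26 (0.994), with 0 of 156 hairpins called by limma, 6 at an unadjusted p under 0.05 and 0 by diffSpliceDGE. Over both lines, permuting the form within each line, the mean difference for miR-140 was -0.10 (exact two-sided p = 0.52, smallest possible 0.005). Exchanging the forms only within same-numbered pairs, the ratio was lower with p140 in 3 of 3 HCT116 pairs (-0.14, -0.40 and -0.11) and 2 of 3 HEK293E pairs (-0.05, -0.02 and 0.13), with an exact two-sided p of 0.188 (smallest possible 0.0312).

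**Figure D3:**
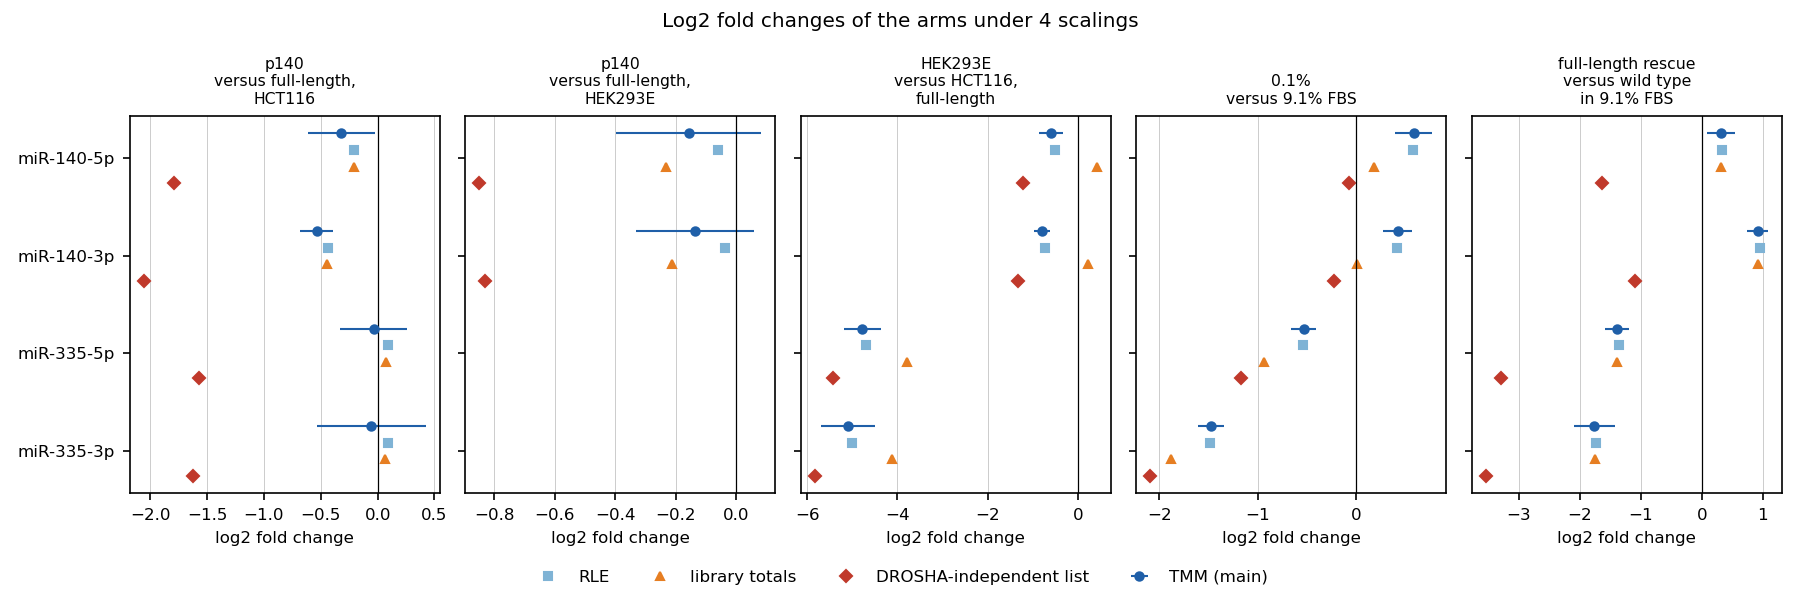
Log2 fold changes of the 4 arms in 5 comparisons (panels, each with its own horizontal axis) under 4 scalings of the libraries. The miR-335 arms were not tested for p140 in HEK293E and have no symbols in that panel. Circles show the TMM value with its standard error, and the other symbols show RLE factors, library totals and the DROSHA-independent list. The miR-140 arms change sign with the scaling in the panels on lines, serum and rescue against wild type, and the miR-335 arms lie left of 0 under all 4 scalings in those panels.

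Between the lines, the arms of miR-335 were the members that differed most. With full-length DROSHA, miR-335-5p had 466 reads over the 3 HCT116 libraries and 11 over the 3 HEK293E libraries, and miR-335-3p 382 and 7. Per library total, HCT116 was 13.8-fold higher for miR-335-5p (exact interval of the pooled reads 7.65 to 27.9) and 17.8-fold for miR-335-3p (8.56 to 44.6). With p140 the folds were 10.5 (5.72 to 21.3) and 47.9 (13.0 to 399, from 2 HEK293E reads). These intervals cover counting error of the pooled reads only, and not the spread between libraries. The edgeR log2 fold changes, HEK293E against HCT116, used TMM factors and not library totals. They were -4.78 ± 0.41 and -5.09 ± 0.60 with full-length DROSHA (edgeR adjusted p = 9.32e-08 and 3.05e-06), against 61.9% of 515 miRNAs called, 27.4% as lower. With p140 they were -4.24 ± 0.42 and -6.30 ± 0.76 (5.49e-07 and 4.53e-06), against 55.3%, 27.8% as lower. On library totals edgeR gave -3.78 and -4.12 with full-length DROSHA, and -3.35 and -5.46 with p140. With full-length DROSHA, blood and muscle markers were higher in HEK293E per library total (459 to 953 against 37.8 to 45.8 CPM, and 58.0 to 64.4 against 1.31 to 3.43). So were intestinal (379 to 434 against 188 to 254) and neural markers (3472 to 4281 against 2060 to 2327). Epithelial markers were lower (210 to 271 against 285 to 355). On library totals the median of all miRNAs was itself 1.18 higher in HEK293E (log2), so a higher sum need not be higher relative to other miRNAs. The part of these markers in the result was not tested. Both miR-335 arms passed the filter through their HCT116 reads alone, so that they had to differ, and these tests add nothing to the read counts.

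The miR-140 arms have no direction between the lines that holds across scalings. With TMM factors miR-140-3p was lower in HEK293E, by 0.80 ± 0.18 on the log2 scale with full-length DROSHA (adjusted p = 0.00141 in edgeR) and at -0.45 ± 0.19 with p140 (0.0525). miR-140-5p stood at -0.60 ± 0.26 (0.0605) and -0.50 ± 0.28 (0.131). On library totals, the scale of the levels above, all 4 values were above 0: 0.42 and 0.22 with full-length DROSHA, and 0.39 and 0.46 with p140, where miR-140-3p passed (adjusted p = 0.0495 in edgeR). Dropping the TMM factors moved the median of all miRNAs by 1.02 with full-length DROSHA and by 0.92 with p140, so relative to all miRNAs both arms stayed below it. It moved the share of calls that were lower from 44.2% to 18.2%, and from 50.2% to 24.1%. The list scale moved the medians by -0.54 and 0.48 and those shares to 59% and 35.1%, and ended the miR-140-3p call with full-length DROSHA (-1.33, adjusted p = 0.0501 in edgeR), as did leaving out replicate 2 (-0.59, 0.0927). miR-140-5p with full-length DROSHA passed without replicate 1 of every rescue group (-0.83, adjusted p = 0.0459 in edgeR). It also passed without HCT116 p140 replicate 1 or 2, which share the fit (-0.64 and -0.65, edgeR adjusted p = 0.0403 and 0.0478). miR-140-3p with p140 passed without HEK293E p140 replicate 1 (-0.55, edgeR adjusted p = 0.0393). The miR-140 arm ratio, which needs no scaling, differed by -0.22 ± 0.28 with full-length DROSHA and 0.02 ± 0.28 with p140 (limma, adjusted p = 0.874 and 0.980). In the first 1.38% of 145 hairpins were called. In the second 0 were called by limma, 20 had an unadjusted p under 0.05, and 0 were called by diffSpliceDGE. Permuting the line within each form gave a mean difference of -0.10 (exact two-sided p = 0.485).

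The serum experiment asks what changes in wild-type HCT116 cells after 72 hr in 0.1% against 9.1% FBS. Both miR-335 arms were lower in 0.1% FBS, the 3p arm by much more than the 5p arm. miR-335-3p stood at 452, 495 and 454 TMM-scaled CPM in 9.1% FBS and at 152, 159 and 192 in 0.1% FBS. It fell by 1.48 ± 0.13 on the log2 scale (edgeR adjusted p = 1.24e-04), and ranked 23 from the lowest of the 577 miRNAs tested. miR-335-5p stood at 430, 483 and 401 against 278, 324 and 305, and fell by 0.53 ± 0.13 (0.00923). Neither arm's groups overlapped. Over all miRNAs tested, 45.8% were called, 20.3% as lower, and 54.9% had groups without overlap. Without replicate 1 or 2, 135 and 119 miRNAs were called, against 264 with all.

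The arms of miR-140 moved the other way on the TMM scale. miR-140-5p stood at 165, 215 and 275 in 9.1% FBS and 297, 316 and 370 in 0.1% FBS, and rose by 0.59 ± 0.19 (edgeR adjusted p = 0.0346). miR-140-3p stood at 397, 414 and 533 against 569, 572 and 659, and rose by 0.42 ± 0.15 (0.0428), with 25.5% of all miRNAs called as higher. TMM factors were 1.12 to 1.18 in 9.1% FBS and 0.861 to 0.873 in 0.1% FBS. On library totals the rises were 0.18 and 0.01 (edgeR adjusted p = 0.425 and 0.939), the median of all miRNAs moved by -0.41 and 77.3% of calls were lower, against 44.3% with TMM. On the list scale the values were -0.07 and -0.23 (adjusted p = 0.879 and 0.55), the median moved by -0.63 and 91.6% of calls were lower. miR-320a, the most abundant of that list, itself rose by 0.82 ± 0.17 with TMM (adjusted p = 0.00482 in edgeR). miR-335-3p remained called as lower under every scaling and without each library in turn, with values from -2.09 to -1.38, and miR-335-5p under every scaling, with an adjusted p of 0.0757 and 0.0976 in edgeR without replicate 1 or 2. The miR-140 calls were lost, for both arms, without 9.1% replicate 1 or 2 or any 0.1% library (adjusted p from 0.0767 to 0.207 in edgeR).

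Within the hairpin, the 3p:5p ratio of miR-335 fell by 0.95 ± 0.18 on the log2 scale (limma adjusted p = 0.0280). This is 1.93-fold, and 8.18% of 220 hairpins were called, 4.09% with a lower 3p share. The miR-335 difference ranked 7 from the lowest, and diffSpliceDGE also called it (-0.94, adjusted p = 0.00735). Its size held without each library (-0.87 to -1.05), while the adjusted p lay between 0.0547 and 0.0915 in limma without any single library other than 0.1% replicate 3. The exact two-sided permutation test of 3 against 3 libraries gave 0.1, the smallest p it allows. For miR-140 the ratio changed by -0.18 ± 0.17 (limma adjusted p = 0.586). Of the conserved intronic list 18 of 38 were higher and 5 lower in 0.1% FBS (median 0.36, all miRNAs -0.03), among them miR-103a-3p at 0.57 ± 0.09. Marker lists also moved between these groups. The 7 blood miRNAs summed to 56.1 to 77.3 CPM in 9.1% and 187 to 214 in 0.1% FBS, with all 7 detected in each. The 3 intestinal miRNAs summed to 151 to 191 and 468 to 495, and the 5 epithelial ones to 40046 to 44283 and 49856 to 52348. The 3 neural ones summed to 3806 to 4936 and 2844 to 3625. Their part in the result was not tested.

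**Figure D4:**
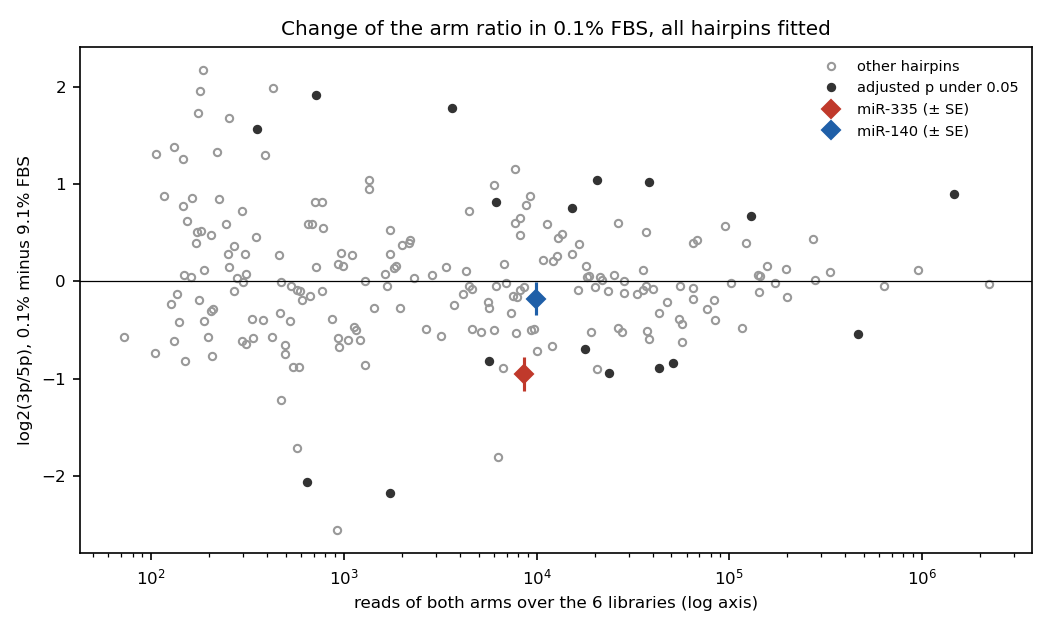
Difference in log2 3p:5p ratio between 0.1% and 9.1% FBS for 220 hairpins, against the reads of both arms over the 6 libraries on a log axis. Filled points are hairpins with an adjusted p under 0.05, and the diamonds are miR-335 and miR-140 with their standard errors. miR-335 lies at -0.95 among the filled points and miR-140 at -0.18 among the open ones.

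Full-length rescue was set against wild type in 9.1% FBS to see where rescue stands, although these groups come from separate experiments, so genotype and experiment cannot be told apart. Both miR-335 arms were lower in rescued HCT116 cells than in wild type in 9.1% FBS, and miR-140-3p was higher with TMM. The untreated wild-type library did not enter this fit. Per library total its miR-335-3p (186 CPM) lay inside the rescue range of 96.1 to 280. Its miR-335-5p (367) lay above the 150 to 245 of rescue, and its miR-140-3p (379) below the 935 to 1018 of rescue. miR-335-5p stood at 151, 190 and 236 TMM-scaled CPM in rescue and 507, 537 and 468 in wild type, and fell by 1.39 ± 0.19 (edgeR adjusted p = 1.79e-04). miR-335-3p stood at 107, 99.6 and 271 against 533, 550 and 531, and fell by 1.76 ± 0.33 (0.00121). miR-140-3p stood at 969, 1054 and 903 against 468, 460 and 623, and rose by 0.92 ± 0.17 (9.60e-04), while miR-140-5p, at 0.31 ± 0.23, did not pass (0.270). Of all 566 miRNAs 58.5% were called, 28.8% higher and 29.7% lower. The DROSHA-independent list was higher in 14 of 14 (median 2.10), and scaling to it moved the median of all miRNAs by -1.97 and the lower share of calls from 50.8% to 96.1%. It turned the miR-140 arms to -1.63 and -1.10 (adjusted p = 0.0109 and 0.0194 in edgeR), while miR-335 stayed lower. The conserved intronic list had 7 of 37 higher and 10 lower (median -0.01, all miRNAs -0.05). The epithelial markers, far lower in rescue as given above, moved with these groups, as did the neural ones (2060 to 2327 CPM in rescue, 3806 to 4936 in wild type) and the blood ones (37.8 to 45.8 and 56.1 to 77.3). Their part in the result was not tested. The arm ratio of miR-140 differed by 0.61 ± 0.26 and that of miR-335 by -0.51 ± 0.31 (limma adjusted p = 0.226 and 0.322, with 2.99% of 201 hairpins called). Without full-length replicate 3 the miR-140 ratio was called, at 0.83 (adjusted p = 0.0447 in limma). In untreated wild type the miR-140 ratio of 3.16 lay inside the 2.33 to 3.71 of the rescue libraries. The miR-335 ratio of 0.506 there lay just below the 0.525 to 1.14 of the rescue libraries.

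Against untreated wild type, the knockout library with GFP held 2 and 4 reads of miR-140-5p and miR-140-3p (103 and 325 in wild type) and 0 and 1 of miR-335-5p and miR-335-3p (314 and 159). With 1 library each there is no test. Per library total the arms of miR-140 together were 3.19-fold lower (counting interval 1.45 to 8.74) and those of miR-335 21.1-fold (3.78 to 837, from 1 read). The interval of miR-140-5p alone (2.30-fold, 0.621 to 19.3) included no difference. miR-335-5p, with no read, was at least 4.68-fold lower against the floor of 3 counts. Relative to the reads of the DROSHA-independent list, which filled 69.7% of this library, the arms of miR-140 were 176-fold lower (80.0 to 481).

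Levels over the 6 replicated groups were compared by the root-mean-square (RMS) difference of the centred group means in log2 CPM. These were not CPM of the library total: miR-140-5p was highest in 0.1% FBS (8.86) and lowest in HEK293E with p140 (7.76). The miRNAs most similar on this scale were sought among 250 with a mean of at least 100 CPM. For miR-140-5p they were let-7e-5p (0.14) and miR-103a-3p (0.17), both nearer than its own other arm (0.27). For miR-140-3p they were miR-193b-3p (0.22) and miR-769-5p (0.27). By RMS difference the nearest miRNAs of the miR-335 arms lay further off. miR-98-5p (0.43) and miR-31-5p (0.44) came nearest to miR-335-5p. let-7a-2-3p (0.66) and let-7d-5p (0.73) came nearest to miR-335-3p, where the other arm stood at 0.65. In these profiles HEK293E with full-length DROSHA and with p140 held 11 and 11 reads of miR-335-5p, and 7 and 2 of miR-335-3p. RMS differences also grow with the range of a profile, here 1.95 to 9.56 for miR-335-3p and 7.76 to 8.86 for miR-140-5p. The larger values therefore do not show a lack of similar miRNAs. By Pearson correlation over the same 6 groups the names were different for every member, so the neighbours depend on the measure. The closeness does too. The highest correlation was 0.9946 for miR-335-5p and 0.9775 for miR-335-3p, against 0.972 for miR-140-5p and 0.907 for miR-140-3p.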

How the data were processed

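Small RNA libraries were made from total RNA to which spike-in RNAs were added, selected for size by gel, and ligated to adaptors with random ends, per the labels' protocols. The deposited values are raw counts of reads for each mature miRNA of each hairpin, without normalization. The tools cutadapt, STAR and bedtools and the build hg38 are named in the submitters' processing notes. The sources used here do not give their versions, the miRNA annotation or the treatment of multiply mapped reads. No row names anything other than a miRNA, so spike-ins were not used here.

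Each table held 2813 rows. For the 167 mature miRNAs in more than 1 row the copy with the highest total was kept. The tests on counts ran in R 4.3.3 with edgeR 4.0.16 (quasi-likelihood, two-sided, TMM factors, filterByExpr with a minimum count of 10, Benjamini-Hochberg adjustment over all miRNAs tested, threshold 0.05). Only the groups compared entered a fit, except that both contrasts between lines and the difference of p140 effects used all 12 rescue libraries. Arm ratios were log2((3p + 0.5)/(5p + 0.5)) per library, fitted with limma 3.58.1. A hairpin entered with at least 10 reads, both arms summed, in every library and at least 10 reads of each arm over the fit. Alternatives used DESeq2 1.42.0, other scalings, filters and pseudocounts, a replicate block and left-out libraries; scaling to library totals and leaving out a replicate number from arm ratios were added after seeing the data. Shares and CPM levels have exact binomial intervals at 95%. Positions and hosts came from GENCODE 29, sequences from RefSeq, folds from RNAfold 2.7.2. The fitting steps were tested on simulated data.

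The members and lists were chosen with earlier results of these data known. Named miRNAs are the members, the 2 nearest in level for each, and up to 3 of the most abundant members of a list. Of the conserved intronic list, 37 of 40 are intronic by annotation. Correlations of same-numbered replicates were all over 0.1, the limit set for taking numbers as pairs: 0.474, 0.362 and 0.676 in HCT116, 0.565, 0.346 and 0.373 in HEK293E and 0.263, 0.15 and 0.67 in the serum experiment. Different numbers reached 0.37, 0.151 and 0.476, so replicate 3 was set apart in HCT116 and the serum experiment but replicates 1 and 2 were not told from each other. The pairing comes from these values and not from the labels. The paired permutation of arm ratios was added after seeing the data. Of the marker lists, muscle miRNAs summed to at most 3.43 CPM in HCT116 and to 32.4 to 66.6 in HEK293E. The neural miR-128-3p is also on the conserved intronic list. No molecular identifiers were counted, so reads are not independent molecules.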

Additional observations from a re-analysis of the deposited data

How the results depend on the processing

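Of 502 values of the members under other settings 431 kept their direction and side of the threshold, 29 lost a call, 10 gained one and 32 changed sign; of 144 arm ratios the numbers were 126, 7, 1 and 10. With the replicate block, the pairing changed no member's call, moved the miRNAs called from 110 to 183 in HEK293E and from 17 to 102 for the difference between lines, and turned 1 sign, that of miR-335-3p with p140 in HCT116 (0.0298). That comparison had values above 0 for miR-335-5p and miR-335-3p with DESeq2 (0.0872 and 0.0868), RLE factors (0.0866 and 0.0889), summed copies (0.0101 and 0.00279) and library totals (0.0722 and 0.0678), none called, and miR-140-3p lost its call on library totals (-0.44).

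Between lines, library totals turned miR-140-5p (0.42 with full-length DROSHA, 0.39 with p140), miR-140-3p (0.22 and 0.46) and the difference of the p140 effects for miR-140-5p (-0.0251). With full-length DROSHA miR-140-5p gained a call in the fit of all 18 replicated libraries (-0.63) and with summed copies (-0.63), and miR-140-3p lost its own on the list scale (-1.33); with p140 miR-140-3p gained one with summed copies (-0.52). In 0.1% against 9.1% FBS miR-140-3p lost its call with RLE factors (0.41), and both arms lost theirs in the fit of all 18 libraries (0.39 for 5p, 0.23 for 3p) and on library totals (0.18 and 0.0133); the list scale gave -0.0733 and -0.23. The list scale also gave -1.63 and -1.10 for miR-140-5p and miR-140-3p in full-length rescue against wild type, and calls at -0.85 and -0.83 with p140 in HEK293E. Apart from the scalings, whose construction moves every miRNA, the cause was not tested.

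Without each library or replicate number in turn, the log2 values with p140 in HCT116 ranged from -0.67 to -0.14 (miR-140-5p), -0.69 to -0.49 (miR-140-3p), -0.29 to 0.17 (miR-335-5p) and -0.43 to 0.51 (miR-335-3p), the arm ratio of miR-335 from -0.30 to 0.42 and that of miR-140 from -0.44 to -0.0439. In HEK293E miR-140-5p ranged from -0.29 to 0.000494, miR-140-3p from -0.22 to -0.0101 and the arm ratio from -0.0356 to 0.0782. The difference of the p140 effects ranged from -0.13 to 0.40 (miR-140-5p), -0.20 to 1.39 (miR-335-5p) and -4.73 to 0.0247 (miR-335-3p). Between lines with full-length DROSHA miR-140-5p ranged from -0.83 to -0.34, miR-140-3p from -0.94 to -0.59 and the miR-140 arm ratio from -0.44 to -0.0895; with p140 miR-140-5p ranged from -0.83 to -0.14, miR-140-3p from -0.59 to -0.26 and the miR-140 arm ratio from -0.16 to 0.22. In the serum experiment the ranges were 0.37 to 0.78 (miR-140-5p), 0.29 to 0.56 (miR-140-3p), -0.60 to -0.46 (miR-335-5p) and -1.05 to -0.87 (miR-335 arm ratio). The miR-140 arm ratio in rescue against wild type ranged from 0.44 to 0.83.

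Numbers called moved by over 1.5 times on the list scale with p140 in HCT116 (266 to 170), in HEK293E (110 to 216) and for the difference between lines (17 to 0), and with RLE factors in the last (11). For arm ratios a pseudocount of 2 gave 2 calls in place of 0 in each line, 5 in place of 2 and 13 in place of 0 between lines, and 23 in place of 6 in rescue against wild type, where diffSpliceDGE gave 15; a minimum of 50 reads or diffSpliceDGE gave 0 between lines with full-length DROSHA. Without libraries or replicate numbers the miRNAs called ranged from 74 to 388 with p140 in HCT116 (266 with all), 47 to 129 in HEK293E (110), 0 to 85 for the difference between lines (17), 119 to 345 in the serum experiment (264) and 217 to 431 in rescue against wild type (331). Arm-ratio calls ranged from 0 to 19 in the serum experiment (18), 0 to 3 between lines with full-length DROSHA (2) and 0 to 27 in rescue against wild type (6). Depth limits the miR-335 arms in HEK293E and all members with GFP.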

Other observations

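The untreated wild-type library, which belongs to no replicated group, had a miR-335 arm ratio 0.12 (log2) from the mean of the 0.1% FBS group and 1.08 from that of the 9.1% group, while the distances of miR-140 were 0.78 and 0.60. Over 187 hairpins this library was nearer to the 0.1% group in 116 (62%), and in 32 of the 53 whose serum groups did not overlap. A distance to the 9.1% group at least as large as that of miR-335 was seen for 46 hairpins.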
